A study of Mus musculus with 12 samples.

Results

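RNA of neural stem cells sorted from the adult mouse dentate gyrus was compared with RNA of the cells around them. The comparison used 8 of the 12 libraries of the series, chosen by their labelled markers: 4 stem libraries and 4 niche libraries, with all genes described. The 4 libraries of the third sorted population, progenitor cells, entered only the estimate of the spread. All mice were 8 weeks old and carried the same LPA1-GFP transgene (STOCK Tg(Lpar1-EGFP)GX193Gsat/Mmucd), in which green fluorescent protein (GFP) is driven from the gene of the lysophosphatidic acid receptor LPA1. The line came from a mixed FVB/N-Swiss Webster background and had been rederived by in vitro fertilisation into C57BL/6. Stem libraries held cells sorted as LPA1-GFP+EGFR+Prominin1+, where EGFR is the epidermal growth factor receptor and Prominin1 a membrane glycoprotein of stem cells. Niche libraries held cells sorted as LPA1-GFP-, that is, whatever else the dissociated tissue released. No treatment was given in the labels. Whether each replicate came from 1 mouse or from several is not stated in the labels. The p-values therefore measure only how these libraries vary, which may be partly technical. A GFP sort reports the activity of a transgene, and cells in which it is active need not all be stem cells.

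The dentate gyrus is a site of the hippocampus where new neurons are made in adult mammals. Its stem cells are radial glia-like cells that are mostly quiescent. Once activated they replicate their DNA and divide, giving intermediate progenitors that express the transcription factors Eomes and Neurog2, and then neuroblasts. Bone morphogenetic protein (BMP) and Notch signals, read out by the Id and Hes genes, are known to hold stem cells in quiescence. The cells around them include granule neurons, interneurons, astrocytes, the oligodendrocyte lineage, blood vessels with their pericytes, microglia and, at the borders of the tissue, perivascular and meningeal macrophages.

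The table lists almost only genes of the plus strand of the genome, 10573 of the 10579 with a known position, so the lists below hold almost only members on that strand, and other genes of the minus strand were not analysed here. Depth was 8693282 to 12948644 reads in the stem libraries and 7597256 to 19237487 in the niche libraries, counted over the listed genes. A level below is in RPKM (reads per kilobase of exon, relative to the reads of the library), divided by a trimmed-mean (TMM) scaling factor. In niche replicates 1 to 4 alpha-globin made up 33.0%, 10.9%, 2.62% and 6.81% of the reads of listed genes, and in the stem libraries 0.02% to 0.186%, so the scaling was chosen to be insensitive to a few dominant genes. Niche replicate 1 stood apart: its TMM factor was 0.4315 against 0.8226 to 0.9663 in the other niche libraries, and its levels correlated with theirs at a Spearman's rho of 0.718 to 0.723, against 0.809 to 0.841 among those 3. Stem libraries correlated with each other at 0.909 to 0.945. Over genes, the median SD of the log2 level was 0.386 in stem, 0.957 in niche and 0.574 in niche without replicate 1. Stem replicate 2 also differed from the other stem libraries in the macrophage genes described below. In bulk samples like these, fewer cells of a type and less RNA per cell cannot be told apart.

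Of 8360 genes tested, 1827 (21.9%) passed an adjusted p of 0.05 in limma, 941 (11.3%) higher and 886 (10.6%) lower in stem. A gene past this threshold is said below to be higher or lower. Among the higher genes 775 had every stem library above every niche library, and among the lower genes 672 had every stem library below. Without regard to the test, 1051 genes (12.6%) lay wholly above and 849 (10.2%) wholly below. The median log2 difference was 2.01 among the higher genes and the median size was 2.13 among the lower genes, while over all tested genes the median was 0.11. Counts of higher and lower genes moved with the scaling. With library totals alone, the deposited scaling, 2017 genes were higher and 586 lower, the median of all genes being 0.58. With library totals that leave out alpha-globin, 1667 were higher and 682 lower, at a median of 0.43. Median-of-ratios factors gave 822 and 944, at a median of -0.02. Leaving out niche replicate 1 gave 1178 higher and 1331 lower. The plot of all genes shows both directions over the whole range of levels.

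The 20 genes with the largest positive difference included cell division genes and genes that macrophages express. Pclaf, which binds the replication clamp PCNA (ENSMUSG00000040204, chr9:65890237-65903266, plus strand in GRCm38), stood at 115, 105, 179 and 163 RPKM in stem replicates 1 to 4 and at 2.93, 0.762, 1.05 and 2.88 in niche replicates 1 to 4. Its lowest stem library was far above its highest niche library, and the log2 fold change was 5.66 ± 0.37 (SE), adjusted p = 1.78e-07. Rrm2, the small subunit of the ribonucleotide reductase that makes DNA precursors (ENSMUSG00000020649, chr12:24708241-24714146, plus strand), stood at 399, 224, 318 and 421 RPKM in stem and 7.86, 4.36, 10.1 and 7.48 in niche (5.34 ± 0.37 (SE), adjusted p = 3.15e-07). The mitotic kinase gene Plk1 (ENSMUSG00000030867, chr7:122159439-122169873, plus strand) stood at 159, 62.8, 139 and 143 RPKM in stem and 2.77, 0.545, 4.66 and 1.76 in niche (5.28 ± 0.47 (SE), adjusted p = 2.13e-06). Stem replicate 2 was the lowest stem library for Plk1, though still above all niche libraries. Pbk, another mitotic kinase, Nusap1, which binds spindle microtubules, and Prc1, which bundles microtubules of the spindle midzone, had log2 fold changes of 5.43, 5.23 and 5.16. Ccl7, a chemokine that attracts monocytes (ENSMUSG00000035373, chr11:82045712-82047525, plus strand), stood at 811, 2432, 467 and 356 RPKM in stem and 21.9, 9.7, 3.65 and 10.6 in niche (6.14 ± 0.79 (SE), adjusted p = 5.3e-05). For Ccl7 the stem libraries were unequal, with replicate 2 highest, but the groups did not overlap. Other leading genes, all highest in stem replicate 2, were Ms4a4a, Tmem106a, Pla2g2d, Mmp9, Clec4a1 and Clec4n, with log2 fold changes of 5.17 to 5.89. Clec4a1 was uneven in niche, at 34.8 RPKM in replicate 1 and 0.243 to 1.24 in the others. The remaining leading genes were the long noncoding RNA Lockd, the antisense gene Gm14024, which overlaps the spindle gene Ckap2l on the opposite strand, and the pseudogenes Gm15428, Gm11771, Gm10087, Gm2862 and Gm12891. The use of strand in the counting is not given in the sources used here, and pseudogenes can share reads with their parent genes, so these values are uncertain.

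The 20 genes with the largest negative difference included genes known from blood, choroid plexus, neurons, glia and vessels. The alpha-globin gene Hba-a1 (ENSMUSG00000069919, chr11:32283511-32284465, plus strand) stood at 959.9, 295, 121 and 104 RPKM in stem and 476437, 83341, 17277 and 48275 in niche (-8.27 ± 0.87 (SE), adjusted p = 8.98e-06). Its near-identical copy Hba-a2 had a log2 fold change of -8.26, and reads could be split between them in either way. Ttr, the thyroid hormone carrier made by the choroid plexus, stood at 69.8, 52.8, 20.2 and 13.1 RPKM in stem and 9072, 4095, 9100.4 and 6720.4 in niche (-7.72 ± 0.55 (SE), adjusted p = 3.19e-07). Neu4, a sialidase of oligodendrocyte precursors, was even among niche libraries, at 48.7, 51.3, 44.7 and 45.9 RPKM, and stood at 1.3, 0.112, 0.0431 and 0.0145 in stem (-5.24 ± 0.44 (SE), adjusted p = 1.05e-06). Synpr, a synaptic vesicle protein of granule neurons, averaged 5.88 ± 5.83 RPKM (SD, n = 4) in stem and 191 ± 85.2 in niche. Stmn2, a neuronal microtubule regulator, averaged 2.42 ± 1.34 and 100.03 ± 29.1. Slc2a5, the fructose transporter of microglia, averaged 1.84 ± 1.49 and 106 ± 109, with niche replicate 1 at 269.6. Higd1b, a pericyte gene, averaged 4.47 ± 4.87 and 153 ± 152. The others were Alas2, the haem synthesis enzyme of red cells, the carbonic anhydrase Car4, the protease Htra1, the neuropeptide Grp, the adhesion protein Cntn1, Mal2, Pglyrp1, Lims2, Golga7b, Adora3, Olfm1 and the miRNA gene Gm22408. Lims2, Gm22408 and Alas2 overlap other genes in the annotation on the opposite strand (Gpr17, Plppr4 and Apex2). Adora3 overlaps Tmigd3 on the same strand. The reads of these genes may therefore be shared. The same holds for other genes named below, among them Egfr (Egfros), Eomes (Gm33460), Nusap1 (Oip5), Pclaf (Trip4), Htra1 (Fgfr2), Gpr34 (Cask), and S100b (Dip2a), each on the opposite strand, and Sox1 (Sox1ot), Sox2 (Sox2ot) and Rnase4 (Ang) on the same strand.

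Most of the tested cell division genes were higher in stem. Of 37 tested mitosis genes 36 were higher (median log2 fold change 3.83), of 19 DNA replication genes 17 (median 2.75) and of 19 cell cycle control genes 11 (median 1.71), and none was lower. The background is the 11.3% of all tested genes that were higher. Among the replication genes, Chaf1b, a histone chaperone subunit, averaged 54.3 ± 19 RPKM in stem and 0.807 ± 0.382 in niche, Cdc6, which loads the helicase at origins, 34 ± 11.1 and 0.34 ± 0.149, and the helicase subunit Mcm5 109 ± 21.4 and 5.67 ± 3.45. The 2 replication genes that did not pass, Cdc7 and Gins3, each had 1 niche library well above the others. Gins3 stood at 0.0791, 10.3, 0.327 and 0.185 RPKM in niche, and its adjusted p went from 0.081 to 0.00643 without niche replicate 2. Cdc7 stood at 0.611, 0.219, 1.81 and 6.48 RPKM in niche, with an adjusted p of 0.081, which was 0.0315 without niche replicate 4 and 0.0388 with the replicate number as a block.

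Among mitosis genes, Cks2, a cyclin-dependent kinase subunit, stood at 517, 398, 558 and 584 RPKM in stem and 12.4, 13.4, 11.4 and 18.7 in niche (5.11 ± 0.26 (SE), adjusted p = 1.36e-08). Aurkb, the kinase of the chromosomal passenger complex, averaged 86.5 ± 22.9 RPKM in stem and 2.54 ± 3.26 in niche. Cdca5, which holds sister chromatids together, averaged 50.05 ± 13.5 and 0.637 ± 0.415, and the kinase gene Melk 51.4 ± 9.87 and 0.751 ± 0.494. The exception was Stmn1, a microtubule-destabilising protein that immature neurons also express, at 1247, 885, 1522 and 1483 RPKM in stem and 1659, 613, 416 and 493 in niche (0.89 ± 0.38 (SE), adjusted p = 0.101). The groups overlapped, with niche replicate 1 the highest of the 8 libraries. Without it the adjusted p was 0.00182.

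Among control genes, Cdk6, the G1 kinase, stood at 221, 149, 266 and 245 RPKM in stem and 4.75, 5.62, 9.41 and 12 in niche (4.67 ± 0.34 (SE), adjusted p = 3.19e-07), and Foxm1, a transcription factor of mitotic genes, at 11.2, 16.4, 8.17 and 15.3 and 0.478, 1.01, 0.162 and 0.271. The phosphatase gene Cdkn3 had a log2 fold change of 4.59. Tfdp1, the partner of E2F factors, averaged 68.8 ± 5.78 RPKM in stem and 39.4 ± 27.1 in niche and did not pass (adjusted p = 0.11, and 0.0133 without niche replicate 1). The cyclin-dependent kinase inhibitor genes Cdkn1a and Cdkn1b, brakes of the cycle, averaged 14.1 against 24.4 RPKM and 31.1 against 23.3 RPKM in stem and niche, with log2 fold changes of -0.66 and 0.55 that did not pass. Cdkn1b did pass without niche replicate 1 (adjusted p = 0.0432). The plot of cell division genes by library shows how far apart the groups lay.

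**Figure D1:**
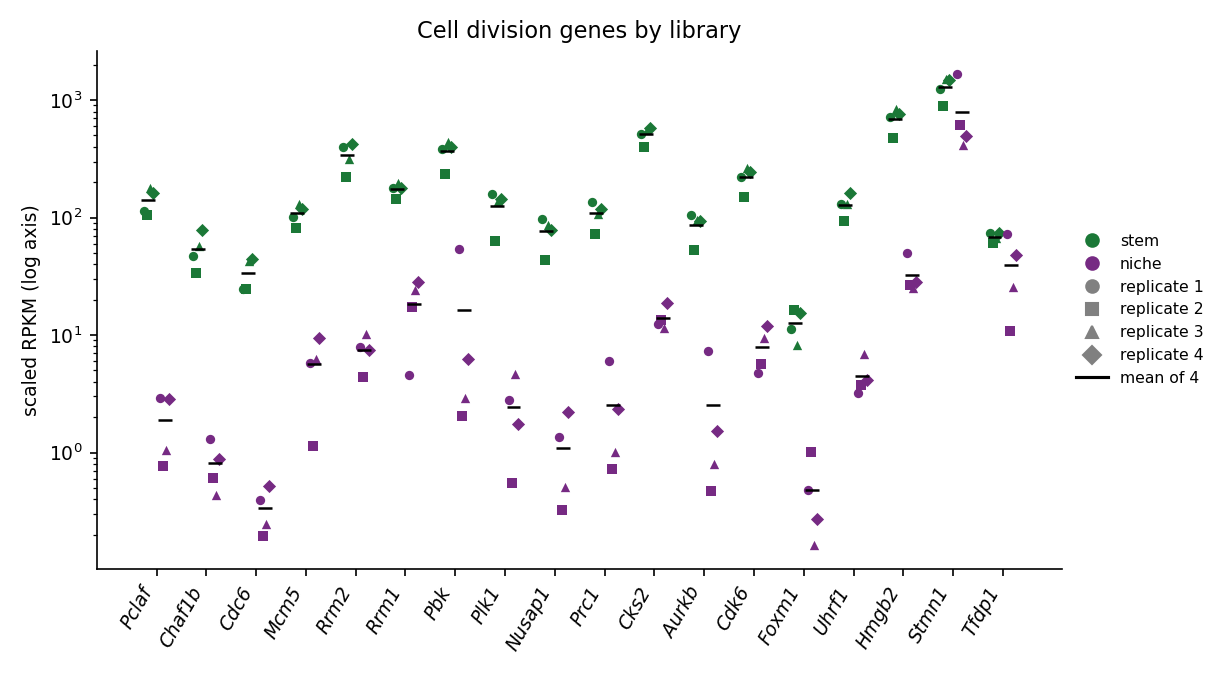
Points are the levels of 18 cell division genes in scaled RPKM (y axis, log scale) in the 4 stem (green) and 4 niche (purple) libraries, with a marker shape for each replicate and a bar at the mean of 4. For every gene but the last pair, Stmn1 and Tfdp1, all stem points lie above all niche points.

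Promoters of these genes were read from RefSeq (GRCm38.p6), since cell cycle genes are known to be driven through E2F sites, CCAAT boxes and cell cycle homology regions. The 8 called members of largest fold change with a promoter in the RefSeq table were examined over the 100 bases before the RefSeq start. Pclaf, Plk1, Prc1, Cks2 and Cdca5 held a searched motif there, and Nusap1, Melk and Chaf1b held none. Promoters of Pbk and Aurkb were not analysed here. RefSeq and GENCODE starts can differ: 86 of the 100 bases for Pclaf and all 100 for Cdca5 lie inside the gene as GENCODE places it, so those are not printed. The other 3 are shown 5′ to 3′ on the plus strand, which is the strand of each gene, with the motif in capitals. Cks2 holds 2 CCAAT boxes, 1 of them on the opposite strand (ATTGG), and Plk1 and Prc1 hold 1 each.
Plk1 (chr7:122159335-122159434): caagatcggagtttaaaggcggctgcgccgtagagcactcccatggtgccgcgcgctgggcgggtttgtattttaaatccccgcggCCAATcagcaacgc
Prc1 (chr7:80294351-80294450): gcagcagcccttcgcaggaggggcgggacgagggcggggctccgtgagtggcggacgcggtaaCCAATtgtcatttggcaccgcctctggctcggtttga
Cks2 (chr13:51645132-51645231): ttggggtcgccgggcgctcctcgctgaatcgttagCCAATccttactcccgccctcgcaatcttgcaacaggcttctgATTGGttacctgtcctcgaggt

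The motifs were searched on both strands as the E2F letters TTTCCCGC, TTTGGCGC or TTTGGCGG, the homology region TTTGAA and the CCAAT box CCAAT, in the 300 bases from 250 before the start to 50 after it. No string contains another. Of 8360 tested genes 5764 had a promoter in the table. An E2F string was in 3.54% of these, in 8.36% of the genes higher in stem, in 1.12% of the genes lower in stem and in 11 of the 52 called members of the 3 cell division lists (21.2%). TTTGAA was in 11.5%, 17.4%, 9.89% and 20 of 52 (38.5%), and CCAAT in 37.8%, 44.8%, 33.7% and 33 of 52 (63.5%). Among higher genes outside the 3 lists the shares were 7.22%, 15.5% and 43.1%. Over all 27025 promoters of the table they were 2.16%, 18.1% and 37.9%. These shares are descriptions of letters and carry no test.

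Genes that supply and repair DNA were mostly higher in stem. Of 11 tested nucleotide synthesis genes 7 were higher, of 22 DNA repair genes 14 and of 17 chromatin genes 9, with medians of 1.56, 1.98 and 1.47 and none lower. The share higher over all tested genes was 11.3%. Rrm1, the large subunit of ribonucleotide reductase, stood at 177, 143, 196 and 178 RPKM in stem and 4.54, 17.3, 24 and 28.1 in niche (3.40 ± 0.42 (SE), adjusted p = 4.05e-05). Uhrf1, which recruits the maintenance DNA methyltransferase to newly made DNA, averaged 129 ± 28.4 RPKM in stem and 4.52 ± 1.65 in niche (4.58 ± 0.34 (SE), adjusted p = 4.74e-07). Xrcc6, a subunit of the Ku end-joining complex that resting cells use too, averaged 47.3 ± 5.67 and 8.65 ± 5.86. Parp1, a sensor of DNA breaks, had all stem libraries above all niche libraries (62.4, 37.6, 66.9 and 54.2 against 2.63, 27.5, 36.2 and 28.1 RPKM) but did not pass (adjusted p = 0.0667, 0.0399 without niche replicate 3 and 0.0451 with the replicate block). Hmgb2, a chromatin protein of dividing cells, stood at 713, 476, 842 and 755 RPKM in stem and 49.99, 26.7, 25.1 and 28.4 in niche (4.40 ± 0.28 (SE), adjusted p = 1.78e-07). The histone variant gene H2afz was abundant in both groups, 2791 ± 543 and 717 ± 384 RPKM. Cbx3, a heterochromatin protein, averaged 1294 ± 271 and 701 ± 352 and did not pass (adjusted p = 0.0527, 0.0046 without niche replicate 1 and 0.0354 with the replicate block).

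Of 21 splicing and RNA processing genes 13 were higher (61.9%, against 11.3% of all tested genes) and none lower (median 1.11). Hnrnpa1, a splicing regulator, averaged 921 ± 182 RPKM in stem and 158 ± 24 in niche (2.52 ± 0.24 (SE), adjusted p = 3.43e-06). The helicase gene Ddx39 and Ptbp1, a splicing repressor that falls as neurons mature, had log2 fold changes of 3.62 and 2.39. The count was 7 without stem replicate 3, 7 without stem replicate 4 and 8 without niche replicate 4.

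Eomes and Neurog2, transcription factors of the neurogenic lineage, were higher in stem. Of 33 tested developmental transcription factor genes 11 were higher and 2 lower (33.3% and 6.06%, against 11.3% and 10.6% of all tested genes). Eomes, the factor of intermediate progenitors (ENSMUSG00000032446, chr9:118478212-118486132, plus strand), stood at 21.7, 17.1, 23.3 and 30.9 RPKM in stem and 0.948, 0.291, 0.476 and 1.16 in niche (3.82 ± 0.39 (SE), adjusted p = 6.19e-06). Neurog2, a proneural factor (ENSMUSG00000027967, chr3:127633135-127635631, plus strand), stood at 10.04, 7.69, 12 and 11.6 and 0.376, 0.0829, 0.155 and 0.293 (3.19 ± 0.40 (SE), adjusted p = 3.78e-05). Sox1, a factor of neural stem cells, stood at 20.3, 17.3, 24.8 and 34.1 and 0.566, 1.91, 1.81 and 6.52 (2.96 ± 0.48 (SE), adjusted p = 0.000402). For Eomes, Neurog2 and Sox1 no stem library overlapped a niche library. Tcf4, a partner of proneural factors, averaged 188 ± 31.4 RPKM in stem and 48.3 ± 26.9 in niche, and Emx1, a factor of the dorsal forebrain, 9.93 ± 3.98 and 1.73 ± 1.15. The 2 lower genes were Olig1, of the oligodendrocyte lineage (-1.64, adjusted p = 0.0137), and Klf9, a hormone-responsive factor (-1.29, adjusted p = 0.00769). With library totals alone neither passed (0.0924 and 0.145). The number of higher genes was 7 without stem replicate 4, and the number of lower genes was 7 without niche replicate 1.

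The defining stem cell markers gave a mixed picture. Of 9 tested members of the neural stem and radial glia list 3 were higher (Sox1, Egfr and Tfap2c), 1 was lower (Id4) and 5 did not pass. The shares were 33.3% higher and 11.1% lower, against 11.3% and 10.6% of all tested genes. Stem cells were sorted as EGFR+, so the Egfr difference was in part set by the sort and says little about the list. Egfr, a marker of the sort (ENSMUSG00000020122, chr11:16752203-16918158, plus strand), stood at 37.2, 24.7, 39 and 36.4 RPKM in stem and 21.2, 8.63, 2.24 and 1.2 in niche (2.48 ± 0.68 (SE), adjusted p = 0.0171). The groups did not overlap, but niche replicate 1 came close to stem replicate 2. The other 2 sort markers, Lpar1 and Prom1, were not analysed here. Sox2, a stem cell factor that astrocytes also carry, stood at 47.4, 38.4, 53.2 and 65.3 and 56.1, 49.8, 20.04 and 42.1 RPKM (0.35 ± 0.34 (SE), adjusted p = 0.504). Vim, an intermediate filament of radial glia, averaged 124 ± 34.5 and 68.2 ± 49.7 (adjusted p = 0.0902, 0.0282 without niche replicate 1 and 0.0244 without niche replicate 2), and Fabp7, the brain fatty acid-binding protein, 725 ± 224 and 493 ± 58.8 (adjusted p = 0.245). With library totals alone Sox2, Vim and Fabp7 passed too (0.0212, 0.00429 and 0.00805).

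In the progenitor and neuroblast list the early and late members split. Eomes and Neurog2 were higher, while Stmn2, Cd24a and Tubb3, which mark young neurons, were lower, at log2 fold changes of -4.93, -2.46 and -1.49. The sixth tested member, Tac2, did not pass (-1.04). Of 14 listed genes 6 were tested.

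Several targets of BMP and Notch signals, Id3, Id4, Hes1 and Smad7, were lower in stem, but their list as a whole was not on 1 side. Of 17 tested genes 3 were higher and 5 lower, with a median of 0.08 that changed sign without niche replicate 1 (-0.53), without niche replicate 4, without stem replicate 2, with a pseudocount of 4 and with median-of-ratios factors. The shares were 17.6% and 29.4%, against 11.3% and 10.6% of all tested genes. Other targets did not pass: Hes5 (0.785, adjusted p = 0.473) and Nrarp (0.233, 0.819) leaned higher. Id1 (-1.938, adjusted p = 0.0522) and Heyl (-1.715, 0.0647) leaned lower. Id3, an inhibitor of proneural factors that BMP induces (ENSMUSG00000007872, chr4:136143497-136145755, plus strand), stood at 48.6, 22.8, 41 and 13.4 RPKM in stem and 958, 504, 264 and 342 in niche (-3.98 ± 0.51 (SE), adjusted p = 4.62e-05). Hes1, a repressor that Notch induces, was nearly constant in stem, 10.3, 9.19, 9.66 and 11.8 RPKM, and stood at 160.2, 60.4, 22.2 and 46.7 in niche (-2.36 ± 0.47 (SE), adjusted p = 0.00219). Id4 stood at 10.4, 7.19, 13.7 and 9.8 and 65.6, 52.1, 32.1 and 56.3 RPKM (-2.21 ± 0.37 (SE), adjusted p = 0.000518), and Smad7, the feedback inhibitor of the pathway, had a log2 fold change of -2.98. Astrocytes and vessel cells also express Id3, Id4 and Hes1, and their marker genes were lower in stem as described below; the part of that in these differences was not tested. The fifth lower gene, the BMP antagonist gene Chrd, had no read in stem. The higher genes were the ligand genes Bmp2 (3.33) and Dll4 (2.21) and the Notch transcription factor Rbpj (2.37). Bmp2 was uneven in stem, 12, 41.3, 13.2 and 4.92 RPKM.

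The stem libraries carried a strong set of border macrophage genes, while microglia genes were higher in niche. Of 10 tested border macrophage genes 9 were higher in stem (median 4.90) and none lower, against 0 higher and 5 lower of 7 tested microglia genes (median -1.55). Over all tested genes 11.3% were higher and 10.6% lower. Mrc1, the mannose receptor (ENSMUSG00000026712, chr2:14229392-14332057, plus strand), stood at 312, 738, 183 and 187 RPKM in stem and 11.7, 4.95, 5.25 and 11.2 in niche (5.10 ± 0.49 (SE), adjusted p = 4.51e-06). Pf4, a chemokine abundant in these macrophages, stood at 1319, 4684, 1330.4 and 1220.0 and 601, 104, 47.7 and 93 (3.77 ± 0.65 (SE), adjusted p = 0.000644). Cd163, the haemoglobin scavenger receptor, stood at 79.5, 169, 37.6 and 53.2 and 1.4, 0.394, 0.492 and 2.89 (5.12 ± 0.60 (SE), adjusted p = 2.22e-05). In each of these 3 genes stem replicate 2 was the highest library and the groups did not overlap. Ms4a4a, Clec4n, the endocytic adaptor Dab2 and the lectin Cd209g had log2 fold changes of 5.89, 5.17, 5.01 and 4.78. Lilra5 did not pass (13, 33.8, 5.78 and 13.5 against 0.362, 7.73, 0.225 and 11.2 RPKM, adjusted p = 0.069), and did so without niche replicate 2 (0.0415), without niche replicate 4 (0.0214) and with the replicate block (0.0236).

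The summed level of the 10 tested border macrophage genes was 3327, 10890.0, 2797 and 2678 RPKM in stem replicates 1 to 4 and 725, 159, 95.3 and 248 in niche. None of the 10 was at 0 in all libraries of a group. Stem replicate 2 thus carried far more of them than the other stem libraries, and it was also the lowest stem library for Egfr, Vim, Plk1 and the mitosis list (summed level 4412, 2872, 4607 and 4607 RPKM). Without stem replicate 2, 9 of the 10 were still higher, with a median of 4.39. The part of macrophage RNA in the other differences was not tested.

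Microglia genes were not absent from stem. Siglech, a lectin of microglia, stood at 14.1, 26.2, 9.11 and 8.87 RPKM in stem and 168, 173, 112 and 154 in niche (-3.40 ± 0.44 (SE), adjusted p = 4.86e-05), with no overlap. Gpr34, a lysophospholipid receptor, stood at 86, 205, 49.3 and 55.6 and 1384, 508, 139 and 327 (-2.33 ± 0.57 (SE), adjusted p = 0.00893), stem replicate 2 lying above niche replicate 3. Trem2, a lipid receptor of microglia, averaged 113 ± 59.8 and 289 ± 120.3 (adjusted p = 0.0162, 0.0668 without stem replicate 4), and Crybb1 31.8 ± 26.9 and 83 ± 36.8 (adjusted p = 0.0457, lost in 12 of 18 alternatives, at most 0.186). Rnase4 did not pass (-0.53, adjusted p = 0.457), and with library totals alone its difference was positive (0.14). The microglia count was 3 without stem replicate 4 and 3 with library totals alone. The summed level of the 7 genes was 254 to 995 RPKM in stem and 631 to 2981 in niche.

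In the general macrophage and microglia list, which shares members with both, 4 of 11 tested genes were higher and 3 lower, or 1 lower without stem replicate 4. The shares with all libraries were 36.4% higher and 27.3% lower, against 11.3% and 10.6% of all tested genes. Csf1r, the growth factor receptor both need, stood at 547, 1016, 329 and 308 RPKM in stem and 182, 313, 299 and 295 in niche (0.87 ± 0.45 (SE), adjusted p = 0.186), passing only with library totals alone (0.0417) among 18 alternatives. The signalling adaptor Tyrobp averaged 1479 against 1339 RPKM and the lysosomal gene Laptm5 1123 against 692 RPKM, and neither passed. Adgre1, the F4/80 antigen, was higher in stem (254, 564, 166 and 154 against 6.41, 84.3, 38 and 50.3 RPKM; 2.88 ± 0.69 (SE), adjusted p = 0.00737).

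**Figure D2:**
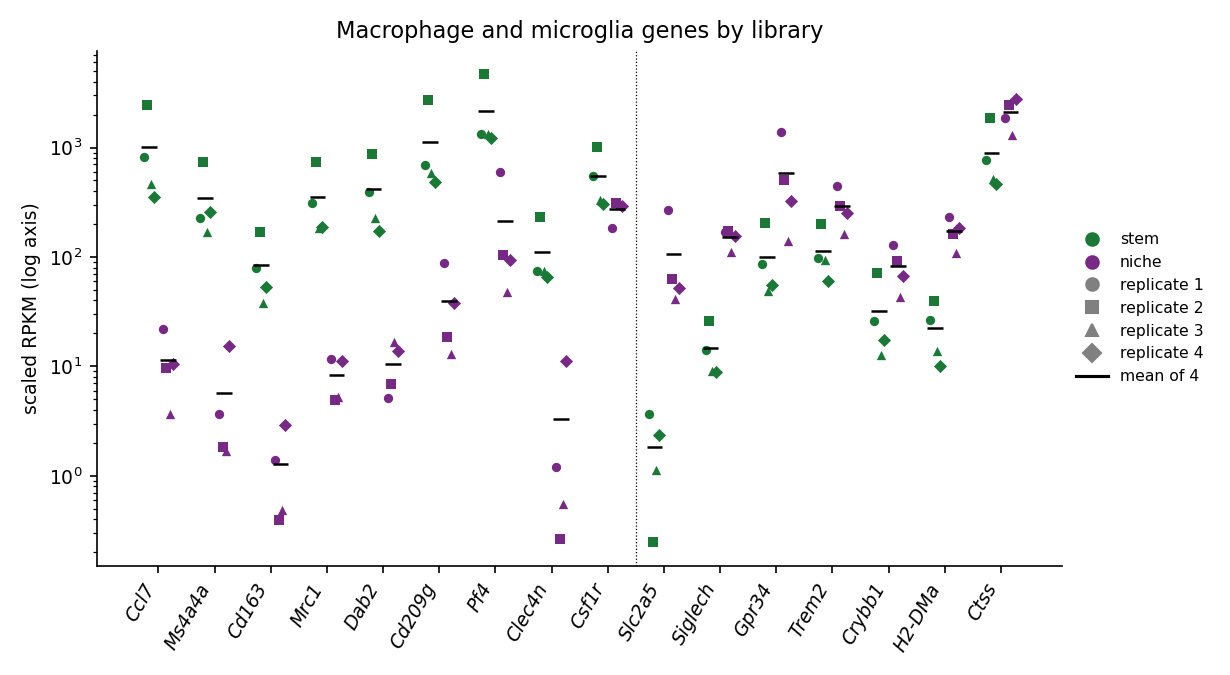
Points are levels in scaled RPKM (y axis, log scale) of 9 border or common macrophage genes (left of the dotted line) and 7 microglia, antigen presentation and lysosome genes (right) in the 4 stem (green) and 4 niche (purple) libraries, with a bar at the mean of 4. Stem replicate 2 (squares) is the highest library of the left side, and for Slc2a5, Siglech and H2-DMa all niche points lie above all stem points.

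Immune genes beyond these lists split between the groups. In the list of chemokines and receptors of cytokines, 7 of 24 tested genes were higher and 4 lower. The shares were 29.2% and 16.7%, against 11.3% and 10.6% of all tested genes. Ccl2, which attracts monocytes, stood at 575, 1589, 396 and 272 RPKM in stem and 133, 37.9, 5.41 and 37 in niche (4.06 ± 0.74 (SE), adjusted p = 0.00097), and Cxcl2, which attracts neutrophils, had a log2 fold change of 4.55. Cx3cl1, a chemokine of neurons, was lower on average, at 12.9, 3.39, 10.6 and 0.404 and 3.27, 90.7, 175 and 115 RPKM. Its groups overlapped and its call (adjusted p = 0.027) was lost in 8 of 18 alternatives, at most 0.095, among them each without stem replicate 2 or 4 or niche replicate 2, 3 or 4.

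Of 27 tested interferon response genes 8 were higher and 1 lower (median 0.81). These are 29.6% and 3.7%, against 11.3% and 10.6% of all tested genes. Ifit3 stood at 37.4, 57.3, 26.3 and 25.5 RPKM in stem and 1.64, 0.362, 5.2 and 0.683 in niche (3.85 ± 0.52 (SE), adjusted p = 7.63e-05), and Oasl2 and the GTPase gene Gbp7 had log2 fold changes of 3.78 and 3.22. The lower gene was Ifitm1 (-3.28), and 2 were lower without niche replicate 1. In the list for Toll-like receptors and NF-kB, 3 of 13 genes (23.1%) were higher, the largest being Tlr4, the endotoxin receptor (32.8 ± 18.7 against 4.6 ± 3.02 RPKM; 2.73 ± 0.59 (SE), adjusted p = 0.00358). None was lower, or 1 without niche replicate 1, and 6 were higher with library totals alone.

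Antigen presentation genes were tested as class I and class II lists. None of 14 major histocompatibility complex (MHC) class I genes passed in either direction by limma. At an unadjusted p under 0.05 1 was higher and none lower, by voom none was called, and 3 were higher with library totals alone and 1 without niche replicate 3. B2m, the common light chain, averaged 2138 ± 1519 RPKM in stem and 2102 ± 1059 in niche. Of 12 MHC class II genes 1 was higher and 4 lower (33.3%, against 10.6% of all tested genes). H2-DMa, which loads peptides, stood at 26.6, 39.3, 13.7 and 10.2 RPKM in stem and 229.9, 163, 109 and 185 in niche (-3.01 ± 0.47 (SE), adjusted p = 0.00026), while Cd74, the invariant chain, did not pass (629.9 against 753 RPKM). The costimulatory gene Cd80 was the higher member, at 5.61, 12.3, 4.17 and 3.45 RPKM in stem, with 3 niche libraries at 0 and the fourth at 0.059. The number lower was 2 without stem replicate 3, without niche replicate 2 or without niche replicate 4. Ctss, a cathepsin that trims the invariant chain, averaged 899.8 ± 652 and 2096 ± 663 RPKM with overlapping groups. Its call (adjusted p = 0.0192) was lost in 6 of 18 alternatives, at most 0.19, among them each without stem replicate 3 or 4 or niche replicate 2 or 4.

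Of 21 lysosome genes 1 was higher and 3 lower (4.76% and 14.3%, against 11.3% and 10.6% of all tested genes). Ctsc, a cathepsin, averaged 259.9 ± 194 RPKM in stem and 45.3 ± 21.2 in niche (2.36 ± 0.48 (SE), adjusted p = 0.00239), and Psap, the saposin precursor, 202 ± 63.5 and 496 ± 48.8 (-1.34 ± 0.27 (SE), adjusted p = 0.00237). The lysosome counts were unstable, at 5 higher and 0 lower with library totals alone, where Psap did not pass (0.0893), and 2 higher and 6 lower without niche replicate 1. Without stem replicate 3 or niche replicate 4, 1 was lower, and without stem replicate 4, 3 were higher and 1 lower. Of 20 leukocyte surface genes 4 were higher and 2 lower, the largest being Clec4a1. These are 20% and 10%, near the shares of all tested genes. None of the 20 was lower without stem replicate 3, stem replicate 4 or niche replicate 2, and 1 was lower without stem replicate 2, niche replicate 3 or niche replicate 4.

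Immediate early genes, which neurons and glia switch on within minutes of stimulation or tissue dissociation, were higher in stem in 5 of 14 tested members, with none lower (median 1.18). The share higher was 35.7%, against 11.3% of all tested genes. Fos stood at 848, 1454, 509 and 388 RPKM in stem and 13.1, 161, 92.5 and 95.5 in niche (3.38 ± 0.75 (SE), adjusted p = 0.00444). Egr1 stood at 107, 164, 75.4 and 54.4 and 4.58, 20.5, 22.8 and 18.6 (2.60 ± 0.66 (SE), adjusted p = 0.0104), and Egr2 had a log2 fold change of 2.88. Stem replicate 2, also the highest in border macrophage genes, was the highest for Fos, Egr1 and Egr2. Niche replicate 1 was the lowest for these 3. The count was 8 with library totals alone.

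Neuronal genes were lower in stem, and niche replicate 1 had the lowest median of the niche libraries in each neuronal list. It was not the lowest for every neuronal gene, with Stmn2 at 118.7, 123.3, 59.3 and 98.8 RPKM in niche replicates 1 to 4. Of 8 tested mature neuron genes 7 were lower (median -2.92), of 16 synaptic vesicle genes 8 and of 16 voltage-gated channel genes 8. Of 6 interneuron genes 4 were lower, and of 14 genes on the glutamate and GABA receptor list 8. None was higher, and 10.6% of all tested genes were lower. The receptor list also holds Homer1, Shank1, Shank2, Dlg2, Dlg4 and Camk2a, which do not encode receptors. Of these only Camk2a was lower. Without niche replicate 1 the synaptic vesicle and receptor counts were both 13 and the channel count 10. Snap25, a membrane fusion protein of synapses (ENSMUSG00000027273, chr2:136713453-136782428, plus strand), stood at 9.49, 5.99, 8.82 and 5.32 RPKM in stem and 89.3, 131, 248 and 223 in niche (-4.29 ± 0.38 (SE), adjusted p = 2.13e-06). Slc17a7, the vesicular glutamate transporter of granule neurons, stood at 3.77, 1.11, 1.84 and 1.86 and 14.9, 86.4, 97 and 53.1 (-4.12 ± 0.58 (SE), adjusted p = 0.000114). Niche replicate 1 was the lowest niche library for both, yet above every stem library. Rab3a, a vesicle GTPase, averaged 4.42 ± 1.38 and 85.2 ± 17.5 RPKM. Map2, a dendrite protein, went the other way without passing (28.6, 16.4, 25.5 and 27.3 against 2.21, 11.1, 28.6 and 18.9 RPKM; adjusted p = 0.215).

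Among receptors, Gabbr1, a subunit of the metabotropic GABA receptor, stood at 2.93, 2.56, 3.94 and 1.41 RPKM in stem and 16.7, 38.8, 42.3 and 23.9 in niche (-3.04 ± 0.43 (SE), adjusted p = 0.00011). Gria3, an AMPA receptor subunit, stood at 0.781, 18.9, 41.6 and 31.3 RPKM in niche, with replicate 1 close to the stem libraries (0.484, 0.276, 0.308 and 0.598; -3.40 ± 0.75 (SE), adjusted p = 0.00448). Among channels, Kcnd2, an A-type potassium channel, averaged 1.32 ± 1.06 and 37 ± 12.8 RPKM. Kcnj3, an inward rectifier, stood at 1.34, 32.8, 73.8 and 70.6 RPKM in niche and 1.55, 0.47, 0.376 and 0.249 in stem, and the groups overlapped through niche replicate 1 alone. The channel count was 4 without stem replicate 4 and 5 without stem replicate 2, stem replicate 3, niche replicate 3 or niche replicate 4. The interneuron count was 2 without stem replicate 2, 3 or 4 or niche replicate 2 or 3. The summed level of the mature neuron list was 35.2 to 60.8 RPKM in stem and 123, 435, 794 and 596 in niche replicates 1 to 4. That of the interneuron list was 24.8 to 44.7 RPKM in stem and 206.2, 243.9, 309 and 182.4 in niche replicates 1 to 4.

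**Figure D3:**
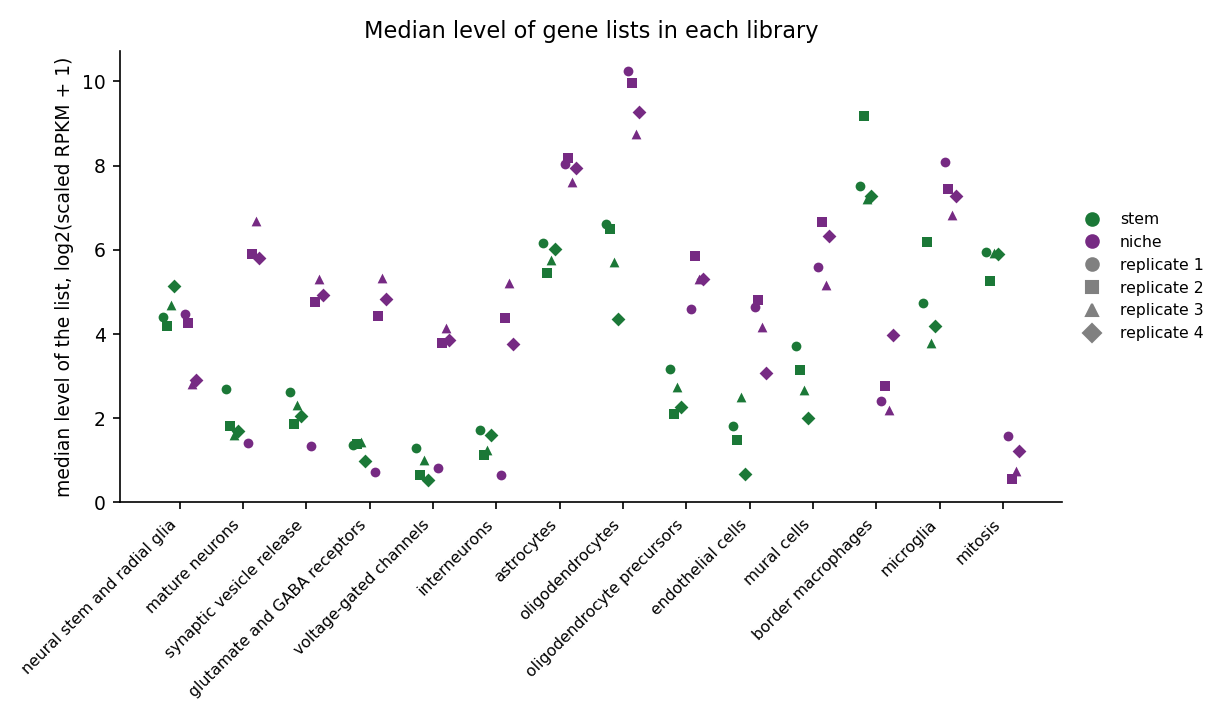
Points are the median level of each gene list in each library (y axis, log2 of scaled RPKM plus 1), green for stem and purple for niche, with a marker shape for each replicate. Niche replicate 1 (purple circles) lies below the stem libraries for 4 of the 5 neuronal lists and among them for voltage-gated channels, but with the other niche libraries for astrocytes, oligodendrocytes and microglia.

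Genes of mature glia were lower in stem. All 10 tested astrocyte genes (median -2.40) and all 7 oligodendrocyte genes (median -3.59) were lower, and in each of these 17 genes every stem library lay below every niche library. Of all tested genes 10.6% were lower and 10.2% lay wholly below. Of 6 oligodendrocyte precursor genes 5 were lower. S100b, a calcium-binding protein of astrocytes (ENSMUSG00000033208, chr10:76253853-76261159, plus strand), stood at 19.3, 15.4, 8.75 and 10.1 RPKM in stem and 213, 304, 146 and 266 in niche (-4.03 ± 0.36 (SE), adjusted p = 2.13e-06). Gja1, the astrocyte connexin, stood at 269, 135, 173 and 175 and 1660.1, 1351, 1107 and 875 (-2.73 ± 0.28 (SE), adjusted p = 7.69e-06). Clu, a secreted chaperone, averaged 279 ± 121 and 2146 ± 724 RPKM, and Slc4a4, the bicarbonate transporter, 3.17 ± 1.92 and 45.6 ± 21.3. Cldn11, which seals myelin, stood at 42.9, 26.3, 25.1 and 4.74 RPKM in stem and 1213, 399.8, 188 and 308 in niche (-4.32 ± 0.69 (SE), adjusted p = 0.000333). Car2, a carbonic anhydrase, had a log2 fold change of -3.59. Stem replicate 4 had the least of Cldn11 and Car2 among stem libraries. Pdgfra, the growth factor receptor of oligodendrocyte precursors, averaged 1.94 ± 1.56 and 44.9 ± 28.8 RPKM. Olig2, by contrast, did not pass (14.4, 7.58, 16.2 and 11.9 against 10.9, 30.3, 19.4 and 15.1 RPKM; -0.52 ± 0.53 (SE), adjusted p = 0.517), and its difference was positive with library totals alone (0.09). The summed level of the astrocyte genes in stem was 867 to 1395 RPKM, against 5600.0 to 7621 in niche.

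Vessel genes were lower as well. Of 9 endothelial genes 5 were lower (median -2.35), of 10 blood-brain barrier transporter genes 7 (median -2.03) and of 8 mural cell genes 5 (median -2.67), with none higher. The share over all tested genes was 10.6%. Slc2a1 and Abcb1a, both lower, are in the endothelial and the transporter list, so these counts overlap. Slc2a1, the glucose transporter of the barrier (ENSMUSG00000028645, chr4:119108711-119137983, plus strand), stood at 33.1, 18.5, 26.4 and 15.7 RPKM in stem and 579, 209, 141 and 114 in niche (-3.17 ± 0.43 (SE), adjusted p = 7.55e-05). Slc22a8, an organic anion transporter, averaged 4.15 ± 3.14 and 51.8 ± 13 RPKM, and Slco1c1, which carries thyroxine, 24.9 ± 8.19 and 158 ± 35.7. Esam, an adhesion molecule of endothelium, had a log2 fold change of -4.07. Rgs5, a pericyte gene, stood at 38.7, 26.4, 5.88 and 2.56 RPKM in stem and 204, 282, 131 and 115 in niche (-3.76 ± 0.60 (SE), adjusted p = 0.000321), and Vtn, vitronectin, at 131, 60.8, 38.6 and 7.73 and 1124, 629, 424 and 336 (-3.78 ± 0.63 (SE), adjusted p = 0.000478). Both were lowest in stem replicate 4 and higher in stem replicates 1 and 2. Among 9 fibroblast and meningeal genes 1 was higher and 2 lower (11.1% and 22.2%, against 11.3% and 10.6% of all tested genes). The lower genes were Igfbp2 and Pdgfra, which is also in the oligodendrocyte precursor list. Igfbp2 had a log2 fold change of -3.98, while Aldh1a2, which makes retinoic acid, was higher (5.21, 4.62, 4.46 and 0.869 against 0.0914, 0.182, 0.378 and 0.998 RPKM; adjusted p = 0.0251, and up to 0.0808 without stem replicate 1, 2 or 3).

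Choroid plexus genes were lower in 3 of 8 members of the choroid plexus and ependyma list, Ttr, the anti-ageing gene Kl (-2.82) and 1500015O10Rik (-2.10). The other 5 members did not pass. Among them Clic6, a chloride channel protein of the choroid plexus, was at 0 in all stem libraries and stood at 0, 0.136, 12.9 and 0.08 RPKM in niche, so that replicate 3 held nearly all of it (adjusted p = 0.287). Of 16 motile cilia genes 1 was lower and none higher. The shares lower were 6.25% of the cilia list, 37.5% of the choroid plexus and ependyma list and 10.6% of all tested genes. Without stem replicate 2 or niche replicate 2, 3 or 4, 1 cilia gene was higher. All 4 tested red cell genes were lower, including Alas2 (7.47, 2.58, 0.551 and 0.557 against 1769, 367, 96 and 211 RPKM) and Bpgm (-2.35). Niche replicate 1 had the highest level of each of the 4.

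**Figure D4:**
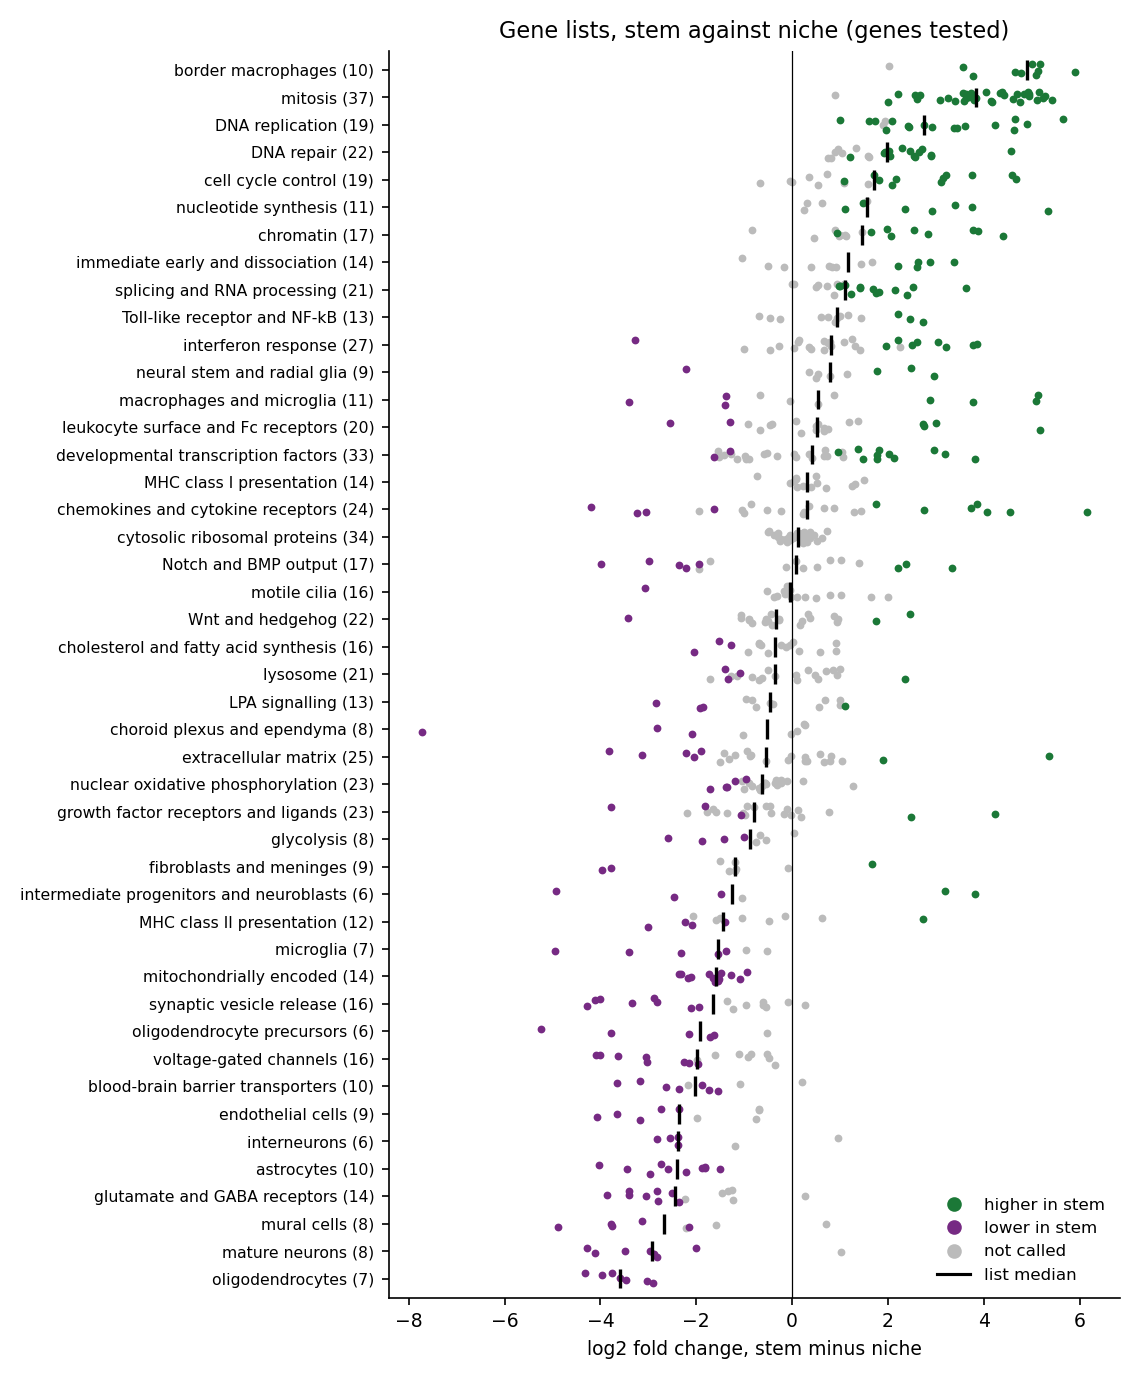
Each point is the log2 fold change, stem minus niche (x axis), of 1 tested gene in the gene list named on the y axis, with the number of genes tested in parentheses. Green is higher in stem, purple lower, grey not past an adjusted p of 0.05, and the bar marks the list median. Lists run from oligodendrocytes at the bottom (median -3.59) to border macrophages at the top (median 4.90).

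Genes of the mitochondrial genome, which encode subunits of the respiratory chain and the mitochondrial ribosomal RNAs, were lower in stem. All 14 tested members passed (median -1.58), while 10.6% of all tested genes were lower. Their share of the reads of listed genes was 9.94% to 12% in stem and 15.4% to 25.8% in niche. mt-Nd1, a subunit of complex I, stood at 3664, 4371, 4017 and 3616 RPKM in stem and 19546, 16118, 15663 and 19068 in niche (-2.17 ± 0.19 (SE), adjusted p = 1.62e-06). mt-Co3, of complex IV, had a log2 fold change of -1.74, and mt-Nd3 one of -2.37 with niche replicate 1 highest. Over the 18 alternatives mt-Co3 ranged from -1.93 to -1.07 and mt-Nd3 from -2.56 to -1.696. The smallest difference was that of mt-Nd5 (-0.95, adjusted p = 0.0352), whose call was lost in 9 of 18 alternatives, at most 0.621 with library totals alone and 0.0607 to 0.0967 without any 1 of the stem libraries or of niche replicates 2 to 4.

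Of 23 nuclear oxidative phosphorylation genes 5 were lower and none higher (median -0.63, but 0.03 with library totals alone, where 2 were higher and 3 lower). The share lower was 21.7%, against 10.6% of all tested genes. Ndufb9, of complex I, averaged 343 ± 58.2 RPKM in stem and 1268 ± 778 in niche, and Cox4i1, of complex IV, 567 ± 71 and 1559 ± 785. The count was 3 without stem replicate 1. None of 34 cytosolic ribosomal protein genes passed in either direction by limma (median 0.12). At an unadjusted p under 0.05 2 were higher and none lower, and voom called 1 higher. Their direction depended on the scaling: 25 were higher with library totals alone, 13 with library totals that leave out alpha-globin and 2 without niche replicate 1, and the median was -0.07 with median-of-ratios factors.

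Of 8 glycolysis genes 4 were lower. Aldoc (-2.59) is also in the astrocyte list, and Slc16a1 (-1.88) is also in the blood-brain barrier transporter list. The others were Eno1, enolase (229 ± 33.5 against 457 ± 14.1 RPKM, adjusted p = 0.00703), and Pfkm, a phosphofructokinase (adjusted p = 0.0287). Neither passed with library totals alone (0.364 and 0.28), and Pfkm did not pass without stem replicate 1, 2 or 4 or niche replicate 3 or 4 (0.0521 to 0.0894). Pkm, pyruvate kinase, averaged 657 ± 91.5 and 645 ± 112 RPKM (0.03 ± 0.24 (SE), adjusted p = 0.943). Pgk1, Pgam1 and Ldha did not pass either. Of 16 cholesterol and fatty acid synthesis genes 3 were lower, among them the fatty acid elongase gene Elovl5 at -1.28 (adjusted p = 0.00533, and 0.0899 with library totals alone). The median of that list, -0.36, was 0.21 with library totals alone. The shares lower were 50% for glycolysis, 18.8% for cholesterol and fatty acid synthesis and 10.6% for all tested genes.

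Since the sort rests on a lysophosphatidic acid receptor, genes of that lipid were examined. Of 13 tested genes 1 was higher and 3 lower (7.69% and 23.1%, against 11.3% and 10.6% of all tested genes). None was higher and 1 lower without stem replicate 1, 3 or 4, none was higher without niche replicate 2, 3 or 4, and 2 were higher without niche replicate 1. Plpp3, a phosphatase that degrades the lipid outside cells, stood at 100.43, 63.4, 114 and 88.2 RPKM in stem and 375, 425, 271 and 264 in niche (-1.86 ± 0.26 (SE), adjusted p = 0.000108). Plpp1, a related phosphatase (7.86, 5.22, 8.27 and 7.69 against 132, 27.9, 17.1 and 12.3 RPKM), and Lpcat2, an acyltransferase (1.74, 7.65, 1.75 and 1.25 against 189, 23.1, 8.98 and 7.31 RPKM), were lower and highest in niche replicate 1. Without it their log2 fold changes went from -1.93 to -1.23 and from -2.83 to -1.86. The Plpp1 call (adjusted p = 0.0293) was lost in 8 of 18 alternatives, among them without any 1 of the stem libraries (0.0577 to 0.0772). The Lpcat2 call (adjusted p = 0.0199) was lost in 4, among them without stem replicate 1, 3 or 4 (0.0556 to 0.0623). Lpar2, another receptor of the lipid, was low in both groups (3.2, 0.825, 1.25 and 0.901 against 0.166, 0.033, 0.0824 and 0.182 RPKM), and its call (adjusted p = 0.0435) was lost in 11 of 18 alternatives, with 0.0518 under the replicate block and at most 0.138 without stem replicate 1.

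Of 23 growth factor receptor and ligand genes 2 were higher and 3 lower (8.7% and 13%, near the 11.3% and 10.6% of all tested genes), and 7 were lower without niche replicate 1 and 5 without niche replicate 4. The 2 higher genes were Igf1 and Egfr, a marker of the sort. Igf1, insulin-like growth factor 1, which macrophages make, stood at 27.2, 73.7, 23.6 and 16.8 RPKM in stem and 0.229, 1.17, 0.991 and 0.391 in niche (4.23 ± 0.58 (SE), adjusted p = 8.16e-05), and stem replicate 2 was its highest library, as for the border macrophage genes. Fgfr3 had a log2 fold change of -1.82. Ntrk2, the receptor of brain-derived neurotrophic factor, averaged 32.7 ± 8.93 and 68.6 ± 15.3 RPKM (adjusted p = 0.0219, 0.0709 without stem replicate 2 and 0.0537 without niche replicate 2). Its call was lost in 5 of 18 alternatives, among them library totals alone (0.434) and library totals that leave out alpha-globin (0.193). Of 22 Wnt and hedgehog genes 2 were higher and 1 lower (2 lower without niche replicate 3 or 4): Sfrp1, a secreted Wnt modulator (16.8, 9.72, 18.1 and 23.4 against 0.915, 0.463, 10.5 and 1.98 RPKM; 2.46 ± 0.56 (SE), adjusted p = 0.00542), Axin1 (1.76, adjusted p = 0.023, 0.0761 without stem replicate 3 and 0.0562 without niche replicate 2) and Lgr4, a receptor of R-spondins (10.1, 6.26, 4.21 and 5.84 against 214, 75.5, 65.9 and 33 RPKM; -3.42 ± 0.55 (SE), adjusted p = 0.000341).

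Some genes were read in 1 group only. By the reads recovered from the deposited values, 18 genes had no read in any niche library and at least 3 in every stem library, and 2 genes, Krt18 and Chrd, the reverse. The 5 of highest level in stem were Pmch, Lctl, Mir3098, Xylb and Gm4890. Xylb, a xylulose kinase gene, had 134, 97, 104 and 198 reads in stem replicates 1 to 4, and its mean level was at least 28.6-fold higher than the level that 3 reads per niche library would give. Pmch had 60, 52, 165 and 71 reads (at least 17.9-fold higher). Pmch lies within Parpbp on the opposite strand, and Lctl and Xylb overlap Zwilch and Slc22a14 in the same way, so these reads may belong to the neighbouring genes. Krt18, a keratin of simple epithelia, had 557, 440, 341 and 27 reads in niche, at least 175-fold higher than 3 reads per stem library would give, and at least 83.2-fold without niche replicate 1. Chrd had 78, 4, 126 and 9 reads (at least 28.1-fold, and 16.3-fold without niche replicate 1). These bounds cover counting error only, since the reads come from amplified RNA without molecular identifiers.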

How the data were processed

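RNA of 1000 sorted cells per library was amplified with a DNA polymerase and sequenced on Illumina instruments, per the labels' protocols. The deposited table is named as counts but, from its values, holds log2(RPKM + 1) as the authors computed it, for 10749 Ensembl identifiers. All 12 libraries were at 0 for 239 of them. The genome build was GRCm38 (mm10), per the submitters' processing notes; the sources used here give no aligner, counter or strand setting. Undoing the log gave whole reads for 100% of the values above 0, within 1e-05 reads, with the annotated exon length for 1225 genes and a length found from the values for 9285. Symbols and positions were matched for 10579 identifiers in GENCODE vM21, of which 10573 lie on the plus strand and 6 on the minus strand, against 27815 and 27635 genes of that annotation. Genes of the minus strand outside the table were not analysed here.

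RPKM values were divided by TMM factors (30% trimmed from the log ratios and 5% from the levels), genes with 10 reads per median library (0.767 CPM) in at least 4 libraries and at least 15 reads in all were kept (8360), and log2(value + 1) was fitted in limma 3.58.1 (R 4.3.3), with 1 mean per group over all 12 libraries, an intensity trend and robust spread. Every adjusted p is from this two-sided test with Benjamini-Hochberg adjustment over all tested genes, unless an alternative is named; limma with voom weights on the recovered reads was 1 of the 18 alternatives and called 1717 genes. Fold changes are on the log2(value + 1) scale, which understates the change of low genes. The pipeline was tested on simulated data. No library pair of a group lay within sampling noise: the chi-square statistic per degree of freedom was at least 39.5.

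The design text says that 3 populations came from each of 4 replicates, without saying what a replicate was. The check for pairing used the libraries' residuals. Deviations from the group means of same-numbered stem and niche libraries correlated at -0.087 to 0.037. The fit had been planned without a replicate block, and the numbers were not used to pair libraries.

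Members and gene lists were chosen with earlier results of these data known. Of 48 lists the text describes those that fit the tissue. Named genes are the 20 largest calls without overlap in each direction, up to 6 called and 2 not called genes per list, the 5 highest genes read in 1 group only, the sort markers, the cell type markers and the 8 promoters of largest fold change. Cdkn1a, Cdkn1b, Tac2, Tyrobp, Laptm5, B2m, Cd74 and Clic6 were added to these after their values were seen. Hes5, Nrarp, Id1 and Heyl were also added then, but are outside the counts of named genes below. A few genes that the rule names are not reported here. Intervals by depth were not computed, and 3 reads was taken as the floor. Some named levels lie at or under that floor, among them Neu4 in stem replicates 3 and 4 (3 and 1 reads). Gm22408 had 2, 0, 6 and 0 reads in stem replicates 1 to 4.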

Additional observations from a re-analysis of the deposited data

Results flagged for a closer look

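In 338 sets of 4 libraries (169 named genes in each group), the highest or lowest library stood far from the other 3 on the log2 scale in 24 cases, by Dixon's ratio. Chance flags about 1 in 20 such sets (5%). Values are scaled RPKM. Stem replicate 2 made up 10 of the cases. It was far above the other stem libraries for Clec4a1 (293, others 86.4 to 97.5), Clec4n (233, others 65.9 to 73.9), Pf4 (4684, others 1220.0 to 1330.4) and Lpcat2 (7.65, others 1.25 to 1.75). It was far below them for Plk1 (62.8, others 139 to 159), Egfr (24.7, others 36.4 to 39), Vim (72.7, others 137 to 148), Pkm (521, others 689 to 717), Plpp1 (5.22, others 7.69 to 8.27) and Ntrk2 (19.4, others 35.8 to 38.5). What sets this library apart was not tested.

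Niche replicate 1 made up 5. It was far above the other niche libraries for mt-Nd3 (18999, others 7070.3 to 7500.3) and mt-Co3 (123530.0, others 57732 to 64262), and far below them for Parp1 (2.63, others 27.5 to 36.2), Csf1r (182, others 295 to 313) and Egr1 (4.58, others 18.6 to 22.8). Niche replicate 2 was highest for Gins3 (10.3, others 0.0791 to 0.327) and Cd80 (0.059, others 0 to 0). Niche replicate 3 was highest for Clic6 (12.9, others 0 to 0.136). Niche replicate 4 was highest for Hnrnpa1 (194, others 143 to 150.1) and lowest for Slc22a8 (32.6, others 55.6 to 61.8). Stem replicate 1 was highest for Neu4 (1.3, others 0.0145 to 0.112) and lowest for mt-Nd3 (1271, others 1916 to 2060.4), stem replicate 3 was highest for Axin1 (8.55, others 4.16 to 4.63), and stem replicate 4 was lowest for Aldh1a2 (0.869, others 4.46 to 5.21).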

How the results depend on the processing

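Of 146 named genes that passed, 129 passed under all 18 alternatives, 17 were lost under at least 1 (12 of them when 1 library was left out) and none changed direction. Of 23 that did not pass, 12 passed under at least 1 alternative. With library totals alone Rnase4 (0.139) and Olig2 (0.093) changed sign, and Pkm did so with median-of-ratios factors (-0.157) and when stem replicate 1, stem replicate 3 or niche replicate 1 was left out. Tyrobp, B2m and Cd74, whose differences were near 0 and did not pass, were positive with library totals alone (0.622, 0.622 and 0.513) and with library totals that leave out alpha-globin (0.402, 0.402 and 0.294). Leaving out 1 library gave Pkm -0.083 to 0.14, Tyrobp -0.492 to 0.169, B2m -0.468 to 0.248 and Cd74 -0.919 to 0.338. Among these alternatives the scaling moved the counts of higher genes most, and leaving out niche replicate 1 those of lower genes. With library totals alone 2017 genes were higher and 586 lower, and 2066 lay wholly above and 454 wholly below, and with library totals that leave out alpha-globin 1667 were higher and 1683 lay wholly above. Leaving out 1 library gave 1282 to 2509 called genes, 641 to 1178 higher and 634 to 1331 lower, with 1135 to 1491 wholly above and 900 to 1536 wholly below; both upper ends of the calls came without niche replicate 1, which shared 1705 calls with the full set. With only the 8 libraries compared, 1247 genes passed (1238 shared). With the replicate number as a block, 1828 passed (938 higher, 890 lower, 1713 shared). Among the stem libraries only replicate 2 correlated best with the niche library of its number, at 0.037. The amplification from 1000 cells per library limits precision beyond the reads counted. List genes outside the table were not analysed here.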
